A study of Homo sapiens with 8 samples.

Results

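The nuclear respiratory chain subunits are the nuclear-encoded proteins of mitochondrial complexes I to V. They were taken here by gene name: the NDUF, SDH, UQCR, COX4 to COX8 and ATP5 families and CYC1, with a count of at least 10 in 4 or more of the 8 libraries. Of 85 names that matched, 82 passed this minimum, out of 16082 genes in the deposited table. ATP5MGL, COX7A1 and COX8C did not pass it, with 0 to 2 counts in each library. Of the 82 members, 7 carry an iron-sulfur cluster by textbook knowledge: NDUFS1, NDUFS7, NDUFS8, NDUFV1 and NDUFV2 of complex I, SDHB of complex II and UQCRFS1 of complex III. The other 75 carry none by that knowledge and are called the other subunits.

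RNA was sequenced from 4 samples of KYSE150 cells with a short hairpin RNA against HNRNPC (shHNRNPC) and from 4 samples of KYSE150 cells labelled as control. KYSE150 is a human esophageal squamous carcinoma cell line, and no further drug or agent is named for either group. HNRNPC binds nascent transcripts in the nucleus, packages them and affects their splicing. The series concerns HNRNPC and an exon of BOLA3, a mitochondrial factor that helps to deliver iron-sulfur clusters. The sources used here do not state the number or sequence of the hairpins, or whether cells were a clone or a pool. No label says that the 4 libraries of a group are separate cultures. The p-values therefore set the difference between groups only against the spread of these samples, and that spread may be technical.

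The chain passes electrons from NADH through complex I, or from succinate through complex II, to ubiquinone, then through complex III and cytochrome c to complex IV, which reduces oxygen. Complexes I, III and IV pump protons, and complex V, the ATP synthase, lets them flow back to make ATP. Iron-sulfur clusters are the wires of complexes I and II and of the Rieske protein of complex III; they are built in the mitochondrial matrix and inserted after the subunit has been imported. The subunits encoded by the mitochondrial genome were not analysed here.

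Library totals were 28323403 to 34913500 counts and did not differ between groups beyond their spread (means 31708206 in shHNRNPC and 32536280 in control libraries, exact two-sided permutation p = 0.657). HNRNPC itself had 33.8, 32.9, 32.5 and 36.5 CPM (counts relative to library size, scaled by TMM factors) in shHNRNPC libraries, against 601, 590, 571 and 587 CPM in control libraries. Its mean was 33.9 ± 1.80 CPM in shHNRNPC and 587 ± 12.5 CPM in control libraries (SD, n = 4 each, exact two-sided permutation p = 0.0286, the smallest that 70 assignments allow), although 55.0% of its transcript matches a near-identical copy. Epithelial markers were all present (9 of 9 at 1 CPM or more), with a summed level of 5480 to 5636 CPM in shHNRNPC and 3229 to 3330 CPM in control libraries. Fibroblast markers summed to 8.38 to 9.53 CPM in shHNRNPC and 3.65 to 3.97 CPM in control libraries, with 1 of 7, COL1A1, at 1 CPM or more. Endothelial markers reached 1.24 to 1.84 CPM in shHNRNPC and 2.15 to 2.45 CPM in control libraries, with VWF the 1 of 4 at that level. The leukocyte markers PTPRC, CD3E and AIF1 were absent or at 0. The part of these marker shifts in the results below was not tested. In bulk RNA of this kind, fewer cells of a type and less RNA per cell cannot be told apart.

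Many respiratory genes are known to carry sites for the factors NRF1, YY1 and the ETS-family factor GABP near their start. RefSeq windows (GRCh38.p14) from 250 bases before to 50 bases after the start were found for 68 of the 82 members, the 7 iron-sulfur genes included. The letters GCGCANGCG, from the core of the NRF1 motif, stood in 22 of these 68 windows (32.4%), against 15.2% of the windows of 9889 genes tested and 8.05% of all 27305 windows. An ETS match (CCGGAAGT) stood in 14.7% of member windows, against 9.17% of the genes tested and 4.44% of all windows. A YY1 match (AAGATGGCG) stood in 11.8% of member windows, against 4.10% of the genes tested and 1.85% of all windows. Both strands were searched, matches of 1 motif that share bases were counted once, and each motif was counted separately whether or not it overlapped another. Among the 7 iron-sulfur genes, 2 windows held an NRF1 match, 1 an ETS match and 2 a YY1 match.

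The 200 bases before the start are shown for SDHA, which holds 4 NRF1 matches, for NDUFB4, a complex I subunit of the other class that rose, and for an iron-sulfur gene that rose (UQCRFS1) and one that fell (NDUFS1). Capitals mark matches to the motifs above, on either strand, and each sequence runs 5′ to 3′ on the strand of its gene. In this build they lie at chr5:218120-218319 on the plus strand (SDHA), chr3:120596136-120596335 on the plus strand (NDUFB4), chr19:29213152-29213351 on the minus strand (UQCRFS1) and chr2:206159445-206159644 on the minus strand (NDUFS1). The repeated match in SDHA and the pair in NDUFB4 are to the NRF1 letters, as is the match in UQCRFS1, and the match in NDUFS1 is to the ETS letters. A match is a description of the sequence and not a site of binding. The genes shown do not stand for all members. NRF1 matches are also in the windows of genes that fell, such as UQCRC1 and NDUFS7. They are absent from those of NDUFA1, which rose, and NDUFV1, which fell. Whether matches go with the direction of change was not tested.
SDHA: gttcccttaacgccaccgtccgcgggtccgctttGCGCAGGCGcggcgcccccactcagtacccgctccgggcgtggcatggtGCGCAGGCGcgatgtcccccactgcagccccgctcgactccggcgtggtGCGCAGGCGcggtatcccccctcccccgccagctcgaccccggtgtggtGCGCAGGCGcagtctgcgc
NDUFB4: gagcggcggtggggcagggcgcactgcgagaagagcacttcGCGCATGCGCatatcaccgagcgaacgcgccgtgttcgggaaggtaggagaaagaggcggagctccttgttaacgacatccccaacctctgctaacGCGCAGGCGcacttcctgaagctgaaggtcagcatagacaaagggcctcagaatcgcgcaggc
UQCRFS1: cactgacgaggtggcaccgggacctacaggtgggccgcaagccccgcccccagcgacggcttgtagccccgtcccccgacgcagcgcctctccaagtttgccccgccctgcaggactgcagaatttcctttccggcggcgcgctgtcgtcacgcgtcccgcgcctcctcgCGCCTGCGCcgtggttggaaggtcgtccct
NDUFS1: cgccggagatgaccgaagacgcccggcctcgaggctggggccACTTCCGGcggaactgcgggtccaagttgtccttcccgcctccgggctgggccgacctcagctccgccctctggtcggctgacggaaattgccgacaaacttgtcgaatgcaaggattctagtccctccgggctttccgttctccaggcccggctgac

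As a group the members were mostly higher in shHNRNPC cells, by small amounts. Of the 82 members, 54 rose (65.9%), 14 fell (17.1%) and 14 did not pass an adjusted p of 0.05 in edgeR's quasi-likelihood test. Knockdown moved much of the transcriptome at this depth: of 12001 genes tested, 77.3% were called, 38.7% higher and 38.6% lower. Among genes with a mean of at least 20 CPM, where 77 of the 82 members lie and 64 of those were called, 83.3% were called, 44.7% higher and 38.6% lower. The median log2 fold change was 0.18 over the members and -0.01 over all genes tested. Most changes were under 1.5-fold: 5 members rose by at least that much, against a background of 9.61% of all genes tested, and 2 fell by that much, UQCRB and COX6B2, against 12.2%. COX6B2 passed the count minimum only through the control libraries, where it is higher, so it had to differ, and nothing is read from its place in these counts.

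Replicates lay close together. The median coefficient of variation of a member's CPM was 2.70% in shHNRNPC and 3.14% in control libraries. All 4 shHNRNPC libraries lay above all 4 control libraries for 51 members, and below them for 10, where 35.4% of all genes tested stand apart in each direction. The 14 members that did not pass had log2 fold changes of -0.05 to 0.12. The plot of fold changes shows that, apart from the scarce COX6B2, the largest moves in either direction sit in complex III, with UQCR10 at the top and UQCRB at the bottom.

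**Figure D1:**
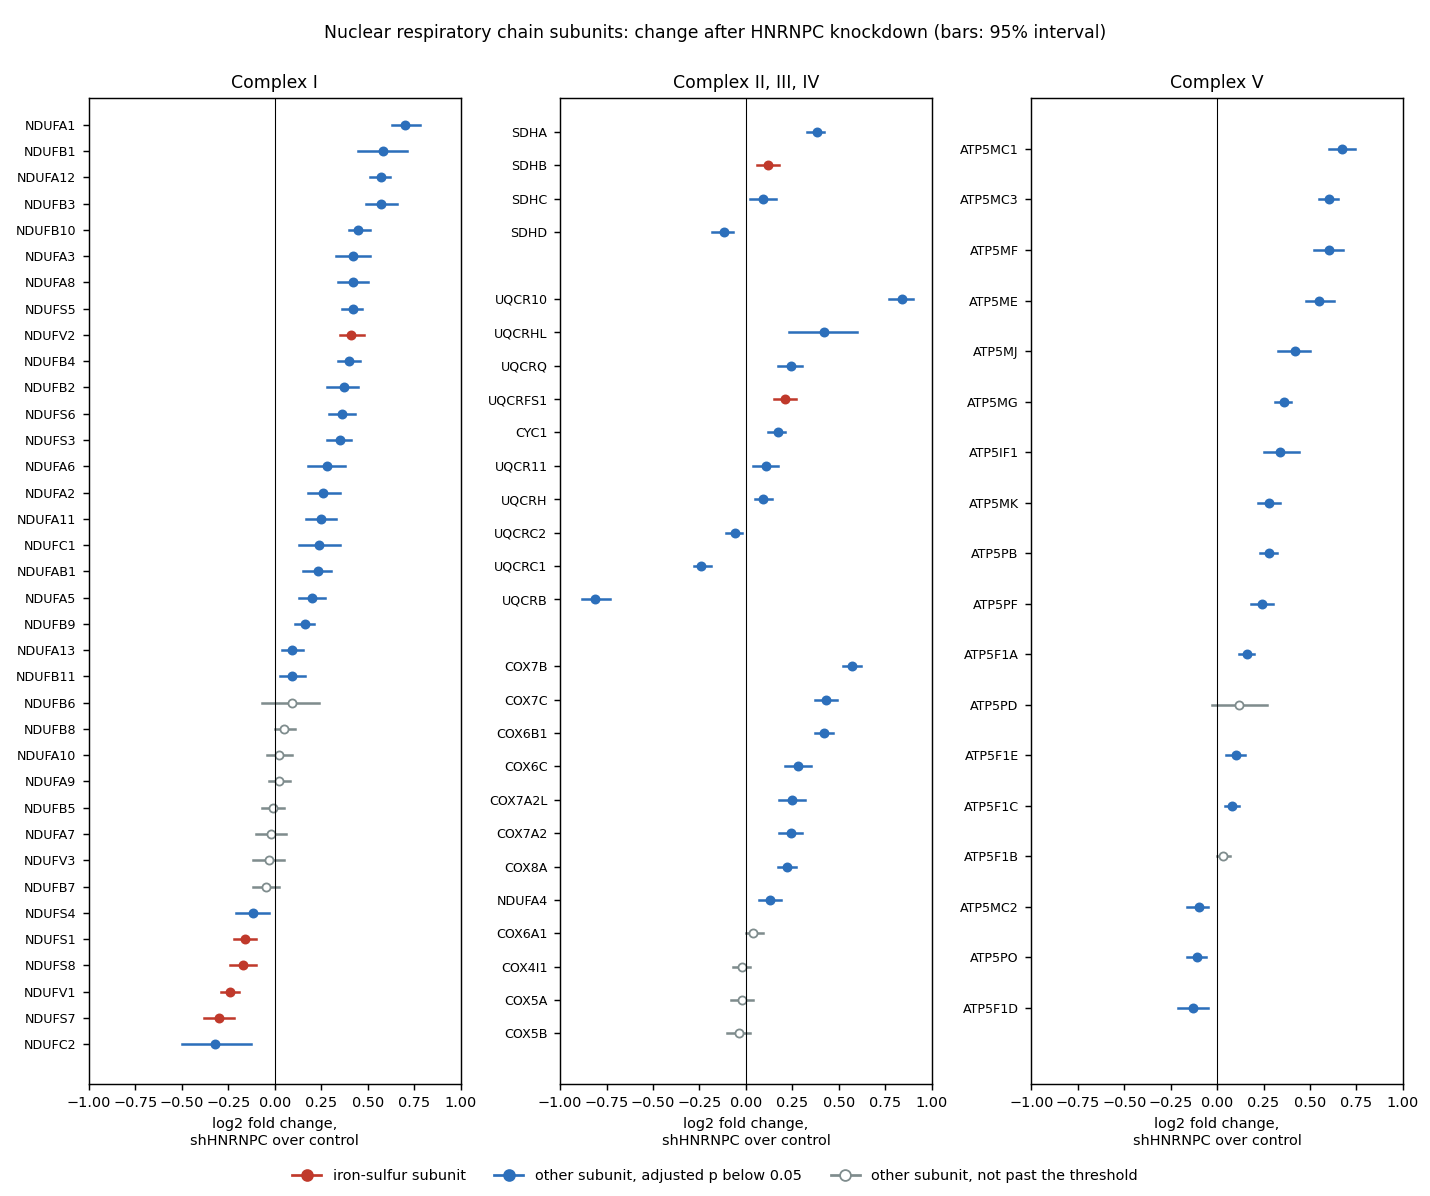
Log2 fold change (shHNRNPC over control, horizontal axis) of the members by complex, with 95% intervals as bars; red marks iron-sulfur subunits, blue other subunits past an adjusted p of 0.05 and open grey symbols those not past it. UQCR10 (0.84) and UQCRB (-0.81) lie farthest out, and 4 of the 5 iron-sulfur subunits of complex I lie left of 0; COX6B2 (-2.35) lies below the axis range and is not drawn, nor is 1 complex I member.

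The iron-sulfur subunits were split in direction. Of the 7, 3 rose (NDUFV2, UQCRFS1 and SDHB) and 4 fell (NDUFS7, NDUFV1, NDUFS8 and NDUFS1), with a median log2 fold change of -0.16. Of the 75 other subunits, 51 rose, 10 fell and 14 did not pass, with a median of 0.22. Both classes are small lists taken from a wide response, and they are set side by side as counts and medians without a test of their difference. Within each shHNRNPC library, the median deviation of the iron-sulfur subunits from the control mean was -0.13, -0.10, -0.18 and -0.17 on the log2 scale. The same median for the other subunits was 0.19, 0.20, 0.20 and 0.19, so the contrast in medians was present in each of the 4 libraries. Summed over genes, the iron-sulfur subunits held 626 ± 8.0 CPM in shHNRNPC and 633 ± 4.66 CPM in control libraries, and the other subunits 9175 ± 95.4 CPM in shHNRNPC and 8191 ± 71.9 CPM in control libraries (SD, n = 4 each).

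The contrast depends on which subunits are counted as iron-sulfur. With the broader class of 8 genes that the GO terms in the deposited table give, 4 rose, 4 fell, and the median was -0.05. Within complex I alone, 1 of the 5 iron-sulfur subunits rose and 4 fell, with a median of -0.17, whereas 22 of the 32 others rose and 2 fell, with a median of 0.23.

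**Figure D2:**
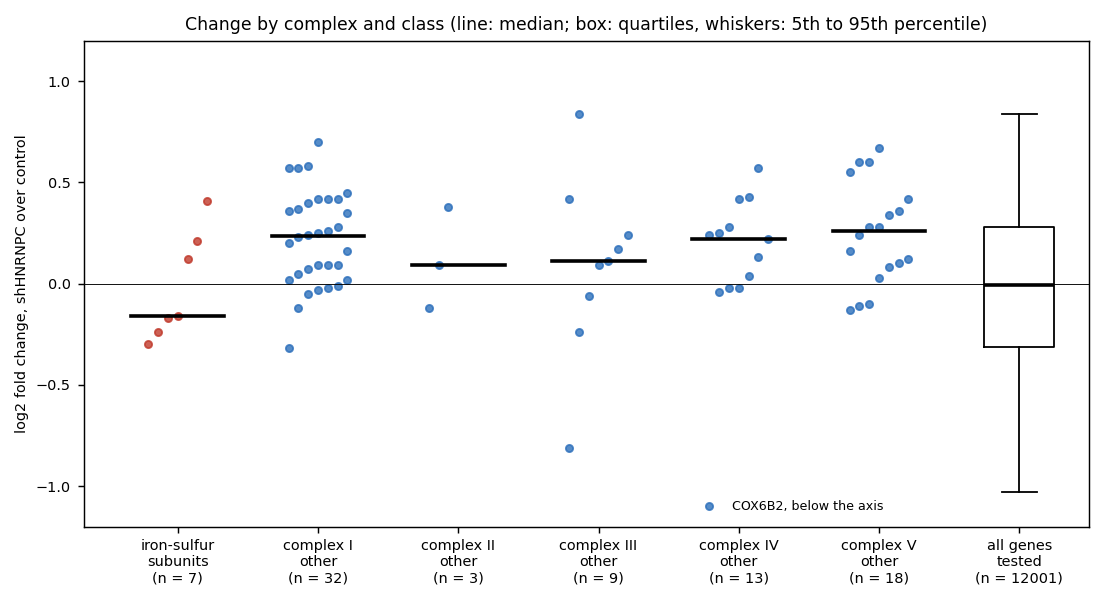
Log2 fold change (shHNRNPC over control, vertical axis) of each member as a point, for the iron-sulfur subunits and for the other subunits of each complex, with all genes tested as a box. The median line of the iron-sulfur subunits lies at -0.16 and that of all genes tested at -0.01, while each group of other subunits has its median above 0; COX6B2 (-2.35) is drawn at the lower edge.

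The electron entry of complex I is formed by NDUFV1, NDUFV2 and NDUFS1. NDUFV1 (chromosome 11, 67606936 to 67612554), which binds NADH, the flavin and the first cluster of the main chain, had 130, 129, 130 and 125 CPM in shHNRNPC libraries, against 151, 153, 150 and 152 CPM in control libraries. No shHNRNPC library reached the lowest control library, and the level was 0.849 of that in control cells (log2 fold change -0.24, SE 0.025, adjusted p = 5.62e-13). NDUFS1 (chromosome 2, 206114817 to 206159444), the largest subunit of complex I and the carrier of several clusters, had 99.7, 102, 94.5 and 95.4 CPM in shHNRNPC libraries, against 103, 113, 107 and 115 CPM in control libraries. The groups did not overlap, though by a narrow margin at replicate 2 of shHNRNPC and replicate 1 of control (log2 fold change -0.16, SE 0.032, adjusted p = 1.14e-05).

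NDUFV2 (chromosome 18, 9102699 to 9134341), which carries a cluster beside the main chain, was the one iron-sulfur subunit of complex I that rose. It had 91.5, 94.2, 95.9 and 89.5 CPM in shHNRNPC libraries, against 70.8, 69.8, 67.3 and 70.8 CPM in control libraries. The groups stood well apart, at a 1.33-fold higher level (log2 fold change 0.41, SE 0.032, adjusted p = 9.30e-19). Of its transcript 74.6% matches another annotated gene at 97% identity or more, and 28.4% of its exon bases overlap another gene, so its reads could have been split or shared in counting.

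NDUFS7 and NDUFS8 carry the clusters that lead to ubiquinone. NDUFS7 (chromosome 19, 1383907 to 1395584), which holds the last cluster, had 43.4, 41.1, 40.2 and 40.0 CPM in shHNRNPC libraries, against 49.6, 50.3, 53.0 and 50 CPM in control libraries. This was the deepest fall of the class (log2 fold change -0.30, SE 0.041, adjusted p = 1.07e-09), and 49.1% of its exon bases overlap other genes that the counting may not have separated. NDUFS8 (chromosome 11, 68030681 to 68036644) had 66.0, 63.8, 63.6 and 64.1 CPM in shHNRNPC libraries, against 73.8, 68.0, 76.6 and 70.2 CPM in control libraries. All shHNRNPC values were again the lower ones (log2 fold change -0.17, SE 0.035, adjusted p = 2.53e-05).

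The iron-sulfur subunits outside complex I were both higher. SDHB (chromosome 1, 17018722 to 17054032), which carries the clusters of complex II, had 95, 93.6, 97.8 and 92.3 CPM in shHNRNPC libraries, against 88.3, 92.2, 84.3 and 84.2 CPM in control libraries. The lowest shHNRNPC value lay just above the highest control value (log2 fold change 0.12, SE 0.031, adjusted p = 0.000538). UQCRFS1 (chromosome 19, 29205320 to 29213151), the Rieske protein of complex III, had 110, 100, 107 and 110 CPM in shHNRNPC libraries, against 90.9, 90.9, 94.4 and 93 CPM in control libraries. These groups did not overlap (log2 fold change 0.21, SE 0.030, adjusted p = 5.26e-09), and 23.4% of its transcript matches a near-identical copy. With members left out where more than 20% overlaps or matches another gene, 4 iron-sulfur subunits remained, of which 25% rose, and their median was -0.16.

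**Figure D3:**
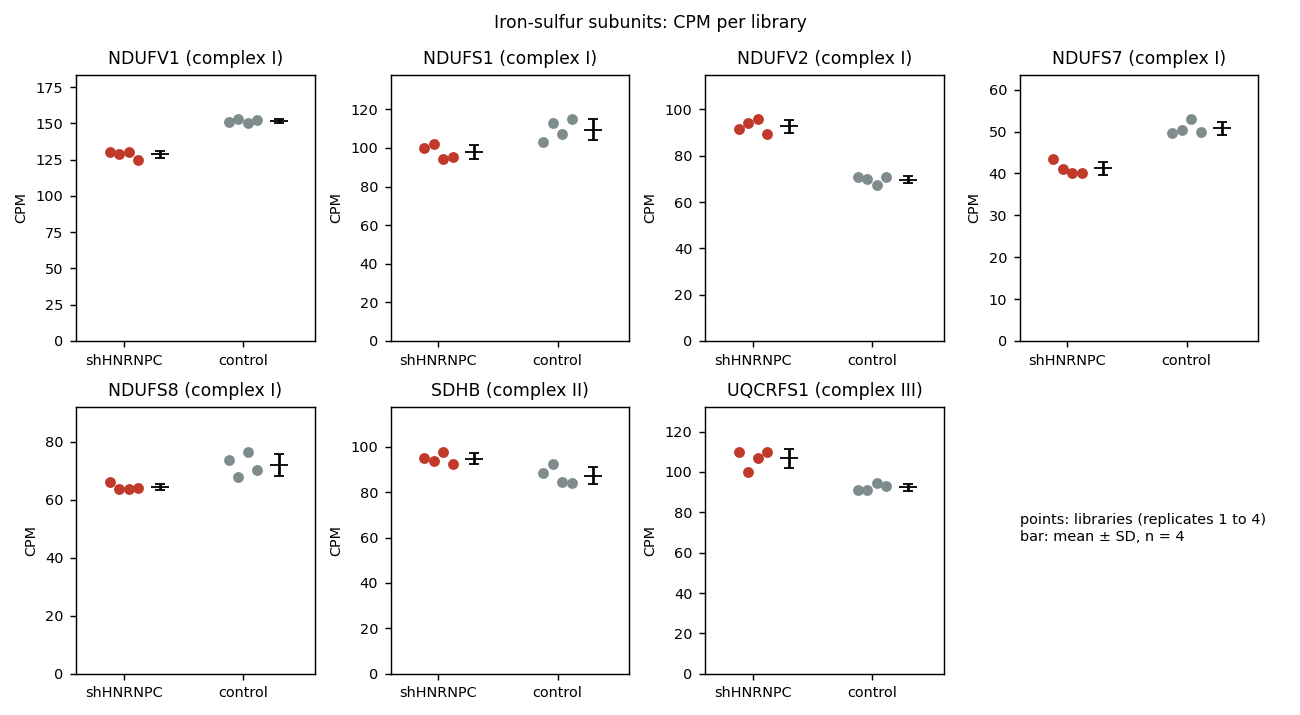
CPM (vertical axis, from 0) of the 7 iron-sulfur subunits in each of the 4 shHNRNPC and 4 control libraries, as points, with the mean ± SD (n = 4) as bars. NDUFV1, NDUFS1, NDUFS7 and NDUFS8 are lower in every shHNRNPC library than in any control library, and NDUFV2, SDHB and UQCRFS1 are higher in every one.

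Complex I as a whole had 23 of 37 members higher, 6 lower and 8 not past the threshold, with a median of 0.20. By gene family, 10 of 13 genes named NDUFA or NDUFAB rose, with a median of 0.25, and 8 of 13 named NDUFB or NDUFC rose and 1 fell, with a median of 0.16. Among the 11 named NDUFS or NDUFV, 5 rose, 5 fell and 1 did not pass. The 4 largest rises were all in small accessory subunits, which surround the catalytic core. NDUFA1, an X-linked subunit of the membrane arm, had 68.7, 68.7, 73.3 and 71.4 CPM in shHNRNPC libraries, against 43.5, 43.8, 43.4 and 42.7 CPM in control libraries. The groups were far apart (1.63-fold, log2 fold change 0.70, SE 0.037, adjusted p = 1.40e-26), but 44.5% of its exon bases overlap RNF113A. NDUFA12, an accessory subunit of the matrix arm, had 114, 108, 114 and 114 CPM in shHNRNPC libraries, against 78.1, 76.5, 76.7 and 72.9 CPM in control libraries, a 1.48-fold rise without overlap (SE 0.030 on a log2 fold change of 0.57, adjusted p = 2.82e-26).

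The membrane arm subunits NDUFB3 and NDUFB1 rose by a similar fold. NDUFB3 had 49.9, 50.2, 48.3 and 50.3 CPM in shHNRNPC libraries, against 34.3, 33.8, 31.1 and 34.4 CPM in control libraries (log2 fold change 0.57, adjusted p = 3.97e-19). NDUFB1 had 20.8, 22.1, 26.2 and 21.0 CPM in shHNRNPC libraries, against 15.6, 14.6, 15.2 and 15 CPM in control libraries (log2 fold change 0.58, adjusted p = 5.69e-12). In NDUFB1 the third shHNRNPC library was the high one, and the groups did not overlap for either gene. Smaller rises without overlap were seen in NDUFB10 (0.45), NDUFA3, NDUFA8 and NDUFS5 (0.42 each), NDUFB4 (0.40), NDUFB2 (0.37) and NDUFS6 (0.36) on the log2 scale. NDUFS3 (0.35), a core subunit without a cluster, rose with them, though 22.4% of its exon bases overlap other genes, as do 35.9% of those of NDUFB2. A further 8 complex I genes rose with log2 fold changes of 0.09 (NDUFA13 and NDUFB11, with overlapping groups and with 21.0% and 44.9% of exon bases overlapping other genes) to 0.28 (NDUFA6).

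The most and least abundant complex I genes per length in control cells moved little. Per kilobase of transcript, NDUFB9, a membrane arm subunit, had a level of 229 CPM in shHNRNPC and 205 CPM in control cells, and 21.0% of its exon bases overlap other genes. Its log2 fold change was 0.16 (adjusted p = 1.20e-07). NDUFB6 was at 18.0 CPM per kilobase in shHNRNPC and 16.9 in control cells, with a log2 fold change of 0.09 that did not pass (95% interval -0.07 to 0.24, adjusted p = 0.294). Such levels rest on the chosen transcript length.

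NDUFS4 and NDUFC2 were the other subunits of complex I that fell, both with overlapping groups. NDUFS4, an accessory subunit needed late in assembly at the electron entry, had 37.6, 37.9, 39.9 and 36.1 CPM in shHNRNPC libraries, against 43.0, 42.1, 39.7 and 39.9 CPM in control libraries. The third shHNRNPC library lay within the control range, and the fall (log2 fold change -0.12, adjusted p = 0.0117) did not pass without control replicate 1 (adjusted p = 0.0554), without shHNRNPC replicate 4 (0.0645) or without shHNRNPC replicates 1 and 4 (0.180). NDUFC2, of the membrane arm, had 7.95, 8.12, 9.72 and 7.41 CPM in shHNRNPC libraries, against 10.3, 9.48, 10.4 and 11.2 CPM in control libraries. Here too the third shHNRNPC library reached the control range (log2 fold change -0.32, SE 0.091, adjusted p = 0.00149), and the call was lost without shHNRNPC replicates 1 and 4 (-0.21, adjusted p = 0.0641).

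Complex II oxidises succinate, and its 4 subunits split, with 3 higher and 1 lower. SDHA, the flavin subunit that oxidises succinate, had 183, 179, 184 and 189 CPM in shHNRNPC libraries, against 144, 141, 142 and 139 CPM in control libraries. It rose 1.30-fold with no overlap (log2 fold change 0.38, SE 0.024, adjusted p = 4.42e-22), with a 95% interval of 0.33 to 0.42 that lies above the interval of its partner SDHB, 0.06 to 0.18. The membrane anchors SDHC and SDHD were called in opposite directions. SDHC had 83.8, 91.1, 91.2 and 86.7 CPM in shHNRNPC libraries, against 79.5, 86.4, 78.2 and 87.0 CPM in control libraries, and 88.7% of its transcript matches a near-identical copy. The groups overlapped, and the call (log2 fold change 0.09, adjusted p = 0.0118) was lost under upper-quartile scaling (adjusted p = 0.0761), without control replicate 1 (0.0676) or 3 (0.0697), without shHNRNPC replicate 2 (0.0509) and without shHNRNPC replicates 2 and 3 (0.343). SDHD had 131, 130, 132 and 125 CPM in shHNRNPC libraries, against 139, 139, 138 and 150 CPM in control libraries. Each shHNRNPC value was lower (log2 fold change -0.12, adjusted p = 4.12e-05), and 56.3% of its transcript matches copies. Per kilobase, SDHC was the most abundant of the complex, at 192 CPM in shHNRNPC and 180 CPM in control cells, and SDHA the least abundant in control cells, at 88.9 CPM in shHNRNPC and 68.5 CPM in control cells.

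Complex III moved in both directions and held the widest spread among the abundant members, with 7 of 10 higher, 3 lower and a median of 0.14. UQCR10, a small membrane subunit near the Rieske protein and cytochrome c1, had 130, 143, 148 and 143 CPM in shHNRNPC libraries, against 79.9, 83.0, 77.1 and 75.8 CPM in control libraries. It rose 1.79-fold (log2 fold change 0.84, SE 0.033, adjusted p = 1.09e-23), at the 95 percentile of all genes tested. UQCRB, the subunit that lies against cytochrome b near the ubiquinone site, had 42.1, 43.5, 43.5 and 43.7 CPM in shHNRNPC libraries, against 79.2, 80.0, 70.5 and 72.5 CPM in control libraries. Its level was 57.2% of that in control cells, with a wide gap between groups (log2 fold change -0.81, SE 0.038, adjusted p = 2.56e-28), at the 7.83 percentile of all genes tested.

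The core proteins of complex III, which face the matrix and are related to processing peptidases, both fell. UQCRC1 had 155, 164, 163 and 164 CPM in shHNRNPC libraries, against 193, 190, 185 and 194 CPM in control libraries. All 4 shHNRNPC values lay below the control range (log2 fold change -0.24, SE 0.024, adjusted p = 1.66e-13). UQCRC2 had 214, 222, 220 and 226 CPM in shHNRNPC libraries, against 229, 227, 230 and 236 CPM in control libraries. The groups only just failed to overlap (log2 fold change -0.06, adjusted p = 0.00802), and the call was lost without shHNRNPC replicate 1 (adjusted p = 0.0685) and without shHNRNPC replicates 1 and 4 (0.0684).

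The remaining complex III genes rose modestly. CYC1, cytochrome c1, had a mean of 183 ± 2.80 CPM in shHNRNPC and 163 ± 3.58 CPM in control libraries (log2 fold change 0.17, adjusted p = 6.67e-09). UQCRQ, which joins cytochrome b and UQCRB early in assembly, as known from yeast, had 88.7, 94.5, 91.1 and 88.1 CPM in shHNRNPC libraries, against 76.2, 76.4, 76.6 and 78.6 CPM in control libraries. Its groups did not overlap (log2 fold change 0.24, adjusted p = 4.35e-10), so it rose where its binding partner UQCRB fell, and 20.8% of its exon bases overlap GDF9. UQCR11 showed a log2 fold change of 0.11 (adjusted p = 0.00257) with overlapping groups, and did not pass without shHNRNPC replicates 2 and 3 (adjusted p = 0.0573). UQCRH, the hinge protein at the cytochrome c site, was the most abundant per kilobase, at 374 CPM in shHNRNPC and 351 CPM in control cells (log2 fold change 0.09, adjusted p = 0.000407). Its intronless paralog UQCRHL, the least abundant, had 10.2, 9.90, 10.4 and 9.96 CPM in shHNRNPC libraries, against 8.66, 7.44, 7.87 and 6.29 CPM in control libraries. The groups stood apart (log2 fold change 0.42, SE 0.093, adjusted p = 5.86e-05), but 85.3% of the UQCRH transcript matches UQCRHL, so the counts of both are uncertain.

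**Figure D4:**
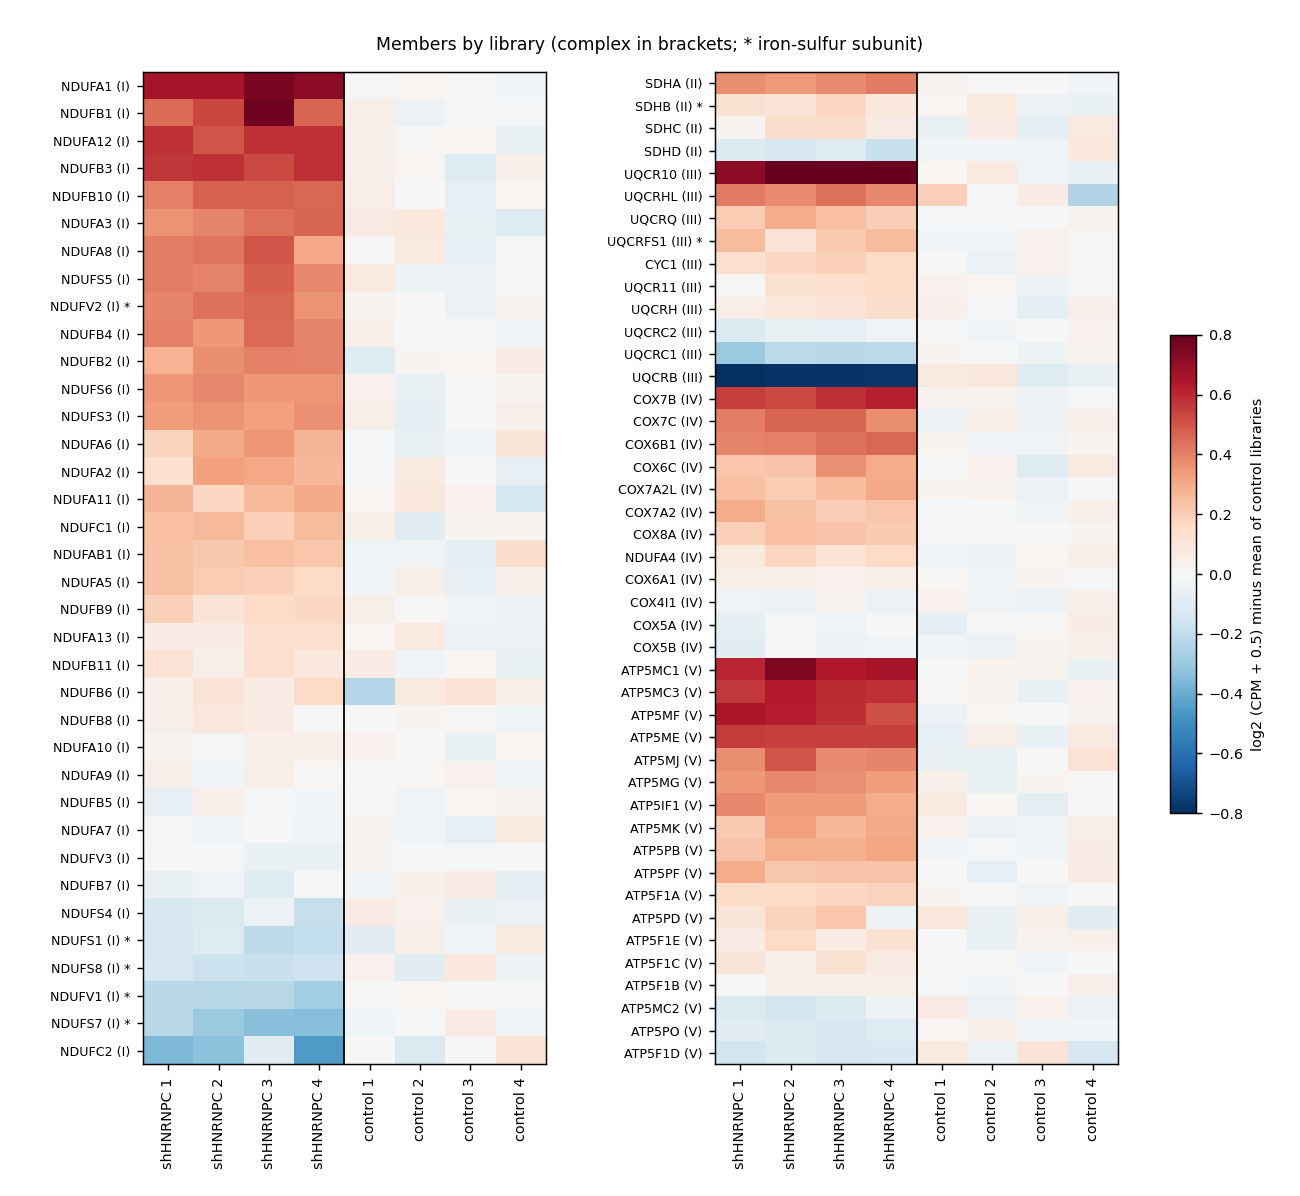
Each member (one per line, complex in brackets, iron-sulfur subunits starred) in the 4 shHNRNPC and 4 control libraries; colour gives log2 (CPM + 0.5) minus the mean of the control libraries, and COX6B2 and 1 complex I member are left out. The 4 shHNRNPC libraries repeat each other: UQCR10, NDUFA1 and ATP5MC1 are deep red and UQCRB deep blue in all 4, with the scale ending at 0.8 in either direction.

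In complex IV, where nuclear subunits surround a core encoded in the mitochondrion, 8 of 13 members rose, 1 fell and 4 did not pass, with a median of 0.22. COX7B, an X-linked small membrane subunit, had 163, 160, 167 and 171 CPM in shHNRNPC libraries, against 113, 113, 108 and 110 CPM in control libraries. It rose 1.49-fold with a clear gap (log2 fold change 0.57, SE 0.026, adjusted p = 1.35e-29). COX6B1, which faces the intermembrane space, had 173, 174, 178 and 181 CPM in shHNRNPC libraries, against 134, 130, 129 and 134 CPM in control libraries (log2 fold change 0.42, adjusted p = 4.67e-24). COX7C had 127, 132, 132 and 124 CPM in shHNRNPC libraries, against 92.5, 98.6, 92.9 and 98.3 CPM in control libraries (log2 fold change 0.43, adjusted p = 2.14e-21). Both rose in every library, and 28.5% of the COX7C transcript matches copies. COX6C followed with a mean of 76.6 ± 3.72 CPM in shHNRNPC and 63.0 ± 3.34 CPM in control libraries (log2 fold change 0.28, adjusted p = 7.96e-10).

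The complex IV subunits that did not pass the threshold were COX4I1, COX5A, COX5B and COX6A1. COX4I1, the most abundant of complex IV per kilobase in control cells (371 CPM in shHNRNPC and 377 CPM in control cells), had 292, 290, 305 and 290 CPM in shHNRNPC libraries, against 306, 293, 290 and 308 CPM in control libraries. The groups overlapped throughout (log2 fold change -0.02, 95% interval -0.07 to 0.02, adjusted p = 0.307), and the gene passed only under upper-quartile scaling (-0.05, adjusted p = 0.0304). COX5A and COX5B gave log2 fold changes of -0.02 (95% interval -0.08 to 0.04) and -0.04 (95% interval -0.10 to 0.02). COX6A1 had 206, 206, 205 and 207 CPM in shHNRNPC libraries, against 201, 197, 203 and 198 CPM in control libraries. Its groups did not overlap, but the log2 fold change of 0.04 (95% interval -0.00 to 0.09, adjusted p = 0.0648) did not pass except without control replicate 3 (adjusted p = 0.0328), and 57.7% of its transcript matches a copy.

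Other complex IV genes bear on isoforms and supercomplexes. COX7A2 rose to 90.3 ± 2.68 CPM in shHNRNPC, against 76.5 ± 1.76 CPM in control libraries (log2 fold change 0.24, adjusted p = 3.94e-10). Its relative COX7A2L, which joins complexes III and IV into supercomplexes, rose to 75.3 ± 2.12 CPM in shHNRNPC, against 63.3 ± 1.53 CPM in control libraries (log2 fold change 0.25, adjusted p = 8.90e-10). COX8A rose as well (149 ± 1.95 CPM in shHNRNPC and 128 ± 1.31 CPM in control libraries, log2 fold change 0.22), though 34.5% of its exon bases overlap another gene. NDUFA4, named for complex I and since assigned to complex IV, had 99.1 ± 2.96 CPM in shHNRNPC and 90.6 ± 2.37 CPM in control libraries (log2 fold change 0.13, adjusted p = 7.65e-05). COX6B2, the testis isoform of COX6B1, was the least abundant member, with 1, 8, 7 and 3 counts in shHNRNPC libraries, against 18, 23, 34 and 27 counts in control libraries. It met the count minimum through the control group alone, so it had to differ to be a member (log2 fold change -2.35, SE 0.42, adjusted p = 1.31e-06), and 30.9% of its exon bases overlap another gene. It made up 0.0818% of the summed COX6B1 and COX6B2 CPM in shHNRNPC and 0.593% in control libraries.

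Complex V had 13 of 18 members higher, 3 lower and 2 not past the threshold, with a median of 0.26. Medians differed between the membrane sector and the catalytic head with its central stalk. All 5 accessory subunits of the membrane sector, which shape the dimer, rose, with a median of 0.42. The 5 subunits of the head and central stalk had 3 higher, 1 lower and a median of 0.08. ATP5MF, subunit f, had 63.3, 62.3, 60.8 and 57.6 CPM in shHNRNPC libraries, against 38.9, 40.5, 40.3 and 40.9 CPM in control libraries. It rose 1.52-fold (log2 fold change 0.60, SE 0.039, adjusted p = 6.74e-22), and 33.7% of its transcript matches a copy. ATP5ME, subunit e, had 62.6, 62.0, 61.9 and 62.0 CPM in shHNRNPC libraries, against 40.4, 43.8, 40.7 and 44.4 CPM in control libraries. The shHNRNPC libraries were almost level with each other and above all controls (log2 fold change 0.55, SE 0.039, adjusted p = 1.79e-20), but 61.6% of its exon bases overlap MYL5. ATP5MJ (0.42), ATP5MG (0.36) and ATP5MK (0.28) rose less on the log2 scale.

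In the head, ATP5F1B, the catalytic beta subunit and the most abundant member of all per kilobase (523 CPM in shHNRNPC and 511 CPM in control cells), had 943, 967, 966 and 971 CPM in shHNRNPC libraries, against 928, 926, 938 and 965 CPM in control libraries. The groups overlapped (log2 fold change 0.03, 95% interval -0.00 to 0.07, adjusted p = 0.0799), and it passed without shHNRNPC replicate 1 (adjusted p = 0.0330) or control replicate 4 (0.0129). Its partner ATP5F1A rose (410 ± 4.97 CPM in shHNRNPC and 367 ± 5.4 CPM in control libraries, log2 fold change 0.16, adjusted p = 4.83e-11). The gamma subunit ATP5F1C (0.08, adjusted p = 0.000481) and the epsilon subunit ATP5F1E (0.10, adjusted p = 0.000554, with 23.2% of its exon bases overlapping TUBB1) rose slightly. ATP5F1D, the delta subunit of the central stalk, had 55.7, 57.1, 56.1 and 56.7 CPM in shHNRNPC libraries, against 65.0, 59.8, 66.3 and 56.1 CPM in control libraries. Control replicate 4 lay within the shHNRNPC range, and the fall was small (log2 fold change -0.13, adjusted p = 0.00238). ATP5PO, the OSCP subunit that ties the outer stalk to the head, had 165, 163, 161 and 164 CPM in shHNRNPC libraries, against 178, 181, 172 and 173 CPM in control libraries. It fell in every library (log2 fold change -0.11, adjusted p = 3.87e-05), with 25.4% of its exon bases overlapping other genes, whereas the outer stalk subunits ATP5PB (0.28, with 65.2% of its transcript matching a copy) and ATP5PF (0.24, with 23.1% of its exon bases overlapping others) rose. ATP5PD, also of the outer stalk, had 99.9, 106, 109 and 90.8 CPM in shHNRNPC libraries, against 99.5, 89.7, 96.6 and 88.2 CPM in control libraries, and did not pass (log2 fold change 0.12, 95% interval -0.03 to 0.27, adjusted p = 0.134). It passed under 5 of 18 alternatives, among them limma voom, the replicate block and leaving out shHNRNPC replicate 4.

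The inhibitor of the ATP synthase also rose. ATP5IF1, which blocks the enzyme when it would run in reverse and was the least abundant of the complex per kilobase, had 35.4, 34.3, 34.3 and 33.2 CPM in shHNRNPC libraries, against 28.3, 27.2, 25.5 and 26.9 CPM in control libraries. The groups were clearly apart (log2 fold change 0.34, SE 0.049, adjusted p = 3.94e-09).

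The genes of subunit c, which forms the rotor ring, did not move together. ATP5MC1, ATP5MC2 and ATP5MC3 encode the same mature protein with different import sequences. ATP5MC1 had 79.9, 88.0, 81.6 and 82.7 CPM in shHNRNPC libraries, against 52.1, 53.3, 53.3 and 50 CPM in control libraries (log2 fold change 0.67, adjusted p = 1.62e-26). ATP5MC3 had 167, 175, 170 and 169 CPM in shHNRNPC libraries, against 113, 114, 108 and 115 CPM in control libraries (log2 fold change 0.60, adjusted p = 7.39e-31). Both rose by 1.5-fold or more, with no overlap between groups. ATP5MC2 had 161, 157, 161 and 169 CPM in shHNRNPC libraries, against 182, 168, 178 and 168 CPM in control libraries, and fell slightly with overlapping groups (log2 fold change -0.10, adjusted p = 0.000401). As a share of their summed CPM, ATP5MC2 made up 39.0 ± 1.25% in shHNRNPC and 51.4 ± 1.26% in control libraries. ATP5MC1 made up 20 ± 0.649% in shHNRNPC and 15.4 ± 0.475% in control libraries, and ATP5MC3 41.0 ± 0.699% in shHNRNPC and 33.2 ± 1.26% in control libraries (SD, n = 4 each). The sum was 415 ± 5.87 CPM in shHNRNPC and 339 ± 6.18 CPM in control libraries. These shares were not tested, and they are set by CPM without regard to transcript length.

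**Figure D5:**
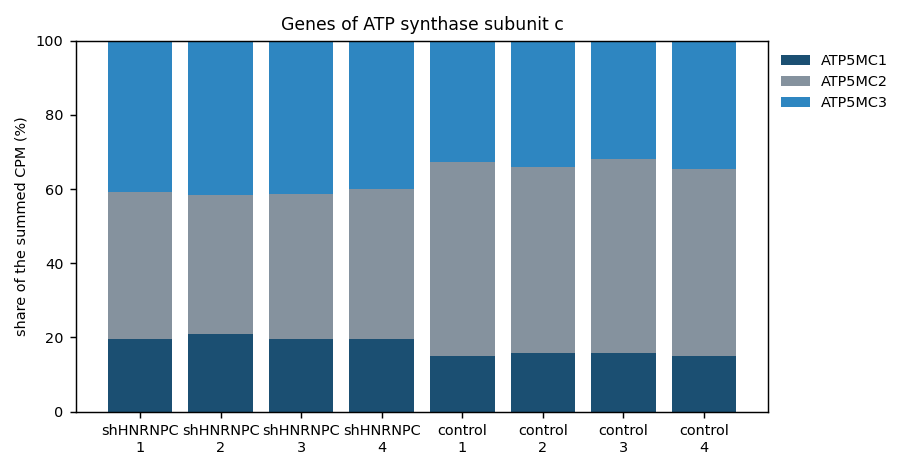
Share of the summed CPM (vertical axis, %) held by the 3 genes of ATP synthase subunit c in each of the 4 shHNRNPC and 4 control libraries, as stacked bars. ATP5MC2 holds 37.3 to 40.3% in the shHNRNPC libraries and 50.1 to 52.5% in the control libraries.

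Transcript length was looked at because most members are short. Of 59 members with transcripts under 1000 bases, 67.8% rose, with a median log2 fold change of 0.24, whereas 40.1% of 1505 genes of that length rose, with a median of 0.02. Over the 82 members, COX6B2 included, log2 transcript length and log2 fold change had a Pearson correlation of -0.29 and a Spearman correlation of -0.33. COX6B2, with the lowest fold change of all members, weighs on the Pearson value, and neither value was computed without it. Both are given as a description since the members share the same libraries. The iron-sulfur subunits include 2 in that shortest class, with 1 higher and 1 lower, against 39 higher and 7 lower of 57 other subunits.

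Other genes of the pathway, in lists put together with earlier results of these data known, had medians close to that of all genes tested or below it. The counts in each list stand beside 38.7% higher and 38.6% lower over all genes tested. The genes that build and deliver iron-sulfur clusters had 6 of 19 higher (31.6%) and 8 lower (42.1%), with a median of -0.09. BOLA3 fell to 7.82 ± 1.13 CPM in shHNRNPC, against 17.2 ± 0.652 CPM in control libraries (log2 fold change -1.13, adjusted p = 1.60e-19). LYRM4, which stabilises the desulfurase that supplies sulfur, fell to 8.31 ± 1.22 CPM in shHNRNPC, against 17.5 ± 1.48 CPM in control libraries (-1.07, adjusted p = 4.34e-17). Both are among the 8 that fell. The 6 that rose include NUBPL (0.66, adjusted p = 1.06e-15), SDHAF3 (0.49, adjusted p = 4.25e-11) and ISCA2 (0.38, adjusted p = 6.42e-08). NUBPL, SDHAF3 and ISCA2 are named after their values were seen.

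Assembly factors of the complexes had 18 of 43 tested higher (41.9%) and 16 lower (37.2%), with a median of 0.04. TTC19, which clears Rieske fragments from complex III, fell to 61.2 ± 2.05 CPM in shHNRNPC, against 119 ± 3.19 CPM in control libraries (log2 fold change -0.96, adjusted p = 1.71e-37). NDUFAF8, a complex I factor, rose to 25.2 ± 1.37 CPM in shHNRNPC, against 14.4 ± 0.329 CPM in control libraries (0.81, adjusted p = 3.94e-19). PET100, a complex IV factor, rose to 27.9 ± 2.0 CPM in shHNRNPC, against 16.0 ± 0.907 CPM in control libraries (0.80, adjusted p = 1.40e-19).

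Genes of the mobile carriers, ubiquinone and cytochrome c, had 5 of 15 higher (33.3%) and 8 lower (53.3%), with a median of -0.15. COQ3, a methyltransferase of ubiquinone synthesis, rose to 34.5 ± 1.33 CPM in shHNRNPC, against 20.4 ± 1.55 CPM in control libraries (log2 fold change 0.76, adjusted p = 2.56e-20), and COQ5, another methyltransferase, fell to 18.9 ± 1.80 CPM in shHNRNPC, against 27.5 ± 0.632 CPM in control libraries (-0.54, adjusted p = 4.96e-13). HCCS, which attaches heme to cytochromes c and c1, rose to 81.7 ± 2.99 CPM in shHNRNPC, against 53.8 ± 2.56 CPM in control libraries (0.60, adjusted p = 6.33e-24).

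Regulators of mitochondrial biogenesis had 4 of 13 tested higher (30.8%) and 5 lower (38.5%), with a median of -0.03. NRF1, the factor whose motif letters are given above, rose to 25.8 ± 2.32 CPM in shHNRNPC, against 19.0 ± 0.904 CPM in control libraries (log2 fold change 0.44, adjusted p = 8.09e-10). TFB1M, a mitochondrial ribosomal RNA methyltransferase, fell to 19.6 ± 1.15 CPM in shHNRNPC, against 28.3 ± 1.19 CPM in control libraries (-0.53, adjusted p = 1.78e-13). POLRMT, the mitochondrial RNA polymerase, fell to 61.4 ± 2.24 CPM in shHNRNPC, against 77.9 ± 3.29 CPM in control libraries (-0.34, adjusted p = 1.23e-13). YY1 also rose, with a log2 fold change of 0.20 (adjusted p = 5.45e-11). Of the genes of GABP, GABPA rose slightly (0.12, adjusted p = 0.00246) and GABPB1 did not pass (-0.01, adjusted p = 0.843). YY1, GABPA and GABPB1 are named for their motifs after their values were seen. The part of these factors or of NRF1 in the changes of the members was not tested.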

How the data were processed

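RNA from 4 shHNRNPC and 4 control samples of KYSE150 cells was sequenced, grouped by the genotype in the labels. Per the labels' protocols, TRIzol was used for extraction and a VAHTS kit for poly(A) libraries. Per the series design text, paired-end NovaSeq reads were cleaned with fastp, and per the submitters' processing notes the build was hg38. Which aligner, counter, annotation and strand mode were used is not given in the sources used here. The deposited values are the authors' raw counts per gene, not normalised, for 16082 genes, of which 0 are of the mitochondrial genome.

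Genes were kept with filterByExpr (minimum count 10, minimum total 15), scaled by TMM and tested with edgeR 4.0.16 (glmQLFit, robust, glmQLFTest, group term only, R 4.3.3). Benjamini-Hochberg adjustment ran over all 12001 genes tested, with a threshold of 0.05, and the adjusted p-values of members are from that fit. Libraries held 28323403 to 34913500 counts, and the common coefficient of biological variation was 3.02%. Replicates of a group differed by a chi-square of 2.66 to 3.70 per degree of freedom, beyond sampling noise, so none was a second deposit of another. Data of this size were simulated with few changed genes and the same dispersion for every gene. In them edgeR called 43 of 49 genes with a true fold of 1.25, 48 of 49 with a fold of 1.50, and 13 of 11765 unchanged genes. In the real data 77.3% of the genes tested were called, so these rates cannot be carried over to them. Positions were from RefSeq; exon overlap and transcript length were from GENCODE release 29, and copies from BLAST 2.17.0 (at least 97% identity over at least 100 bases). The annotation behind the counts may differ from both.

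The members and gene lists were chosen with earlier results of these data known, so no list was tested as a whole. Described in full were every iron-sulfur subunit, every member that fell, the 4 largest rises in complexes I, III, IV and V, all of complex II, the most and least abundant member per kilobase in each complex in control cells, sets of isoform genes, ATP5IF1 and up to 3 genes of each pathway list; other members are given briefly, and some items are not reported here. Alternatives were DESeq2 1.42.0, limma 3.58.1 voom, other scalings and filters, a replicate block, left-out libraries and left-out members with overlaps. After the data were seen, the GO-based iron-sulfur class and the left-out members with copies were added.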

Additional observations from a re-analysis of the deposited data

Results flagged for a closer look

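Within the groups of 4 libraries, a library counted as standing far from the others where its gap to the nearest, divided by the range, exceeded Dixon's 95% critical value. Chance gives this in about 1 group in 20, and 7 of the 114 groups examined met it. In shHNRNPC libraries, replicate 1 was low for ATP5F1B (943 CPM, the others 966 to 971 CPM), for UQCRB (42.1 CPM, the others 43.5 to 43.7 CPM) and for UQCRC1 (155 CPM, the others 163 to 164 CPM). Replicate 3 of shHNRNPC was high for COX4I1 (305 CPM, the others 290 to 292 CPM), and replicate 2 of shHNRNPC was low for NDUFA12 (108 CPM, the others 114 CPM). In control libraries, replicate 4 was high for SDHD (150 CPM, the others 138 to 139 CPM) and for UQCRQ (78.6 CPM, the others 76.2 to 76.6 CPM).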

How the results depend on the processing

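Over 18 alternative fits, 70 of the 82 members kept their call, 51 of them higher and 11 lower, and no named gene reversed. The iron-sulfur subunits gave 3 higher and 4 lower in every fit, while members rose in 51 to 56 cases and fell in 11 to 16. The median over members was 0.15 with upper-quartile factors, which moved the median of all genes to -0.03, and 0.20 without members overlapping by more than 20%. The iron-sulfur median was -0.05 with the class from the GO terms. The median of the other subunits was 0.19 with upper-quartile factors, 0.20 without shHNRNPC replicates 2 and 3, 0.23 without overlapping members, 0.23 without overlapping or copied members, 0.22 with the class from the GO terms, and 0.20 to 0.22 with single libraries left out. The fallen other subunits of complex I numbered 1 to 2 with single libraries left out and 0 without shHNRNPC replicates 1 and 4. Complex IV had 0 lower with the 1 CPM filter, which drops COX6B2, and 2 with upper-quartile factors. Without a filter, 59.7% of all genes passed.

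No sign of pairing by replicate number was seen. Deviations of same-numbered libraries correlated at -0.033 to 0.019, and those of other-numbered libraries at -0.062 to 0.046. This cannot show that same-numbered samples were handled apart. With the replicate block, 55 members rose and 14 fell, and 76.8% of all genes passed. Depth limits COX6B2, with 1 to 34 counts a library.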
